A study of Homo sapiens with 6 samples.

Results

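The metallothionein and metal response genes described here were 8 genes taken by name from the 25420 genes of the tables. They were the metallothionein genes MT1E, MT1F, MT1G, MT1M, MT1X and MT2A, the transcription factor gene MTF1 and the zinc exporter gene SLC30A1. All 8 were found by their Entrez identifiers, and the reads of each were summed over its annotated 3′ UTRs.

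Metallothioneins are small cysteine-rich proteins that bind zinc and copper inside the cell and can also bind cadmium. Their genes are induced when free zinc rises, through MTF1, a zinc finger transcription factor that senses zinc and binds metal response elements in their promoters. SLC30A1, also called ZnT1, carries zinc out of the cell across the plasma membrane and is a known MTF1 target, so that binding and export of the metal are regulated together.

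The cells were a single line, MOLM-13, an established cell line from secondary acute myeloid leukaemia (sAML) that carries an MLL-AF9 fusion and a FLT3 internal tandem duplication. They were exposed for 2 h to 10 µM C646, which blocks the acetyltransferase activity of CBP and p300, or to the solvent DMSO, with 3 replicates in each group. Both groups received 100 µM 4-thiouridine (4sU) during the last 1 h, and the labels name no metal treatment. New RNA takes up 4sU, and SLAM-seq turns it into T > C conversions in the reads. T > C reads are therefore taken here as RNA made in the last hour, without a correction for conversions that arise without label. All reads count old and new RNA together. The comparison asks how inhibition of CBP and p300 changed the new and the total mRNA of these genes.

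The libraries held between 7252597 and 10225448 reads on 3′ UTRs, of which 477824 to 833410 were T > C reads. T > C reads made up 8.74% to 8.86% of the reads in the DMSO libraries and 6.34% to 6.71% in the C646 libraries, so the groups differed in the T > C share of the whole library. All 8 myeloid leukaemia markers looked up, among them CD33, SPI1 and MPO, were at 10 CPM (counts scaled to library size) or more in every library. The 3 erythroid markers had at most 3 reads in any library, and none of the 3 lymphoid or the 3 stromal and epithelial markers reached 10 CPM in all of them. The libraries are bulk samples, so fewer cells with a transcript and less of it per cell cannot be told apart. A library without 4sU was not analysed here, so the T > C share that arises without label was not measured.

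The 6 metallothionein genes lie within 75.6 kb of chromosome 16. MTF1 and SLC30A1 lie on chromosome 1. On GRCh38, the counted 3′ UTRs were 56609355 to 56609497 for MT2A, 56626972 to 56627113 for MT1E, 56633843 to 56633986 for MT1M, 56659073 to 56659303 for MT1F and 56684050 to 56684196 for MT1X, all on the plus strand of chromosome 16. The 3′ UTR of MT1G was 56666735 to 56666878 on the minus strand. On the minus strand of chromosome 1, the 3′ UTRs were 37809567 to 37815135 for MTF1 and 211575039 to 211575387 for SLC30A1. MT1F had a further entry of 1 base, and the 3′ UTR of MT1X also lay in the unnamed GENCODE gene ENSG00000259827 on the same strand. None overlapped a counted 3′ UTR of another gene.

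The promoters are shown because MTF1 reads the metal through short elements in them. RefSeq promoter sequences on GRCh38.p14 were matched for 4 of the 8 genes, MT1X, MT2A, MTF1 and SLC30A1, while MT1E, MT1F, MT1G and MT1M were not matched. The 250 bases before each start are printed 5′ to 3′ on the gene's strand. Capitals mark the core of the metal response element, TGCACNC or TGCGCNC, on either strand. The regions are chr16:56608334-56608583, plus strand, for MT2A, chr16:56682220-56682469, plus strand, for MT1X, chr1:211579162-211579411, minus strand, for SLC30A1, and chr1:37859593-37859842, minus strand, for MTF1.
MT2A: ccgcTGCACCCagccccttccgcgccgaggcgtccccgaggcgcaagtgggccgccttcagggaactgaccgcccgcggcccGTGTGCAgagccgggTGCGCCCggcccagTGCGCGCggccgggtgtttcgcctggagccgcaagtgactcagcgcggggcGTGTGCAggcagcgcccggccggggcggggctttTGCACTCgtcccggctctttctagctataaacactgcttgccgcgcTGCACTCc
MT1X: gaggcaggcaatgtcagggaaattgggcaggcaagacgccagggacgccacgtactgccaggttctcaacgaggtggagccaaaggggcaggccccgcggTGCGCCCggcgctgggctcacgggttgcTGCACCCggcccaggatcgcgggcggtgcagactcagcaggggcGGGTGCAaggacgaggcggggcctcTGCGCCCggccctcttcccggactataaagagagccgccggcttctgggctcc
SLC30A1: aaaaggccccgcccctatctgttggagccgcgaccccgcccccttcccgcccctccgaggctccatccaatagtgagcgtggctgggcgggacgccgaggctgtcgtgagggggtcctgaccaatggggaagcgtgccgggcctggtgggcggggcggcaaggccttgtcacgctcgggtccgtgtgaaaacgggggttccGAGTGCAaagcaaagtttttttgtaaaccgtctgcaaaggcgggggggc
MTF1: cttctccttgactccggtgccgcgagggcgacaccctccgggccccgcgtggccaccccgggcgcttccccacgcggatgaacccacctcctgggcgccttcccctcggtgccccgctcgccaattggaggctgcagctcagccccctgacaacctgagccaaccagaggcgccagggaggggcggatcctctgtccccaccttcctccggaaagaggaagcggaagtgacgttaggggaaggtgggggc

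The MT2A promoter held 7 matches to the element, with their first bases 246, 168, 153, 139, 88, 54 and 8 bases before the start. The MT1X promoter held 4, at 150, 122, 78 and 53 bases, and the SLC30A1 promoter held 1, at 49 bases. No match was present in this window of MTF1, the gene of the factor itself. Of 27305 RefSeq promoters cut to the same length, 24.72% held at least 1 match, 1.564% held 3 or more and 0.0586% held 6 or more. The antioxidant response element TGACNNNGC, on either strand, had 1 match in each of MT1X, MT2A and SLC30A1 and was present in 11.03% of all promoters. The canonical heat shock element had no match in the 4 promoters and was present in 0.4395% of all. None of the marked matches overlapped a match to the antioxidant element.

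New RNA of MT1G, MT2A and SLC30A1 fell in C646-treated cells, by 1.90, 1.74 and 1.85 on the log2 scale. The groups of SLC30A1 overlapped, and its call was lost when any of 4 single libraries was left out. With this scaling no gene of the 8 was called higher, by edgeR or by DESeq2, and none was higher at an unadjusted p under 0.05, where 6.02% of all tested genes were. With TMM on the T > C reads in place of all reads, 1 was called lower (MT1G) and 1 higher (MTF1). T > C reads of MT1E were also lower in every C646 library, by 0.84, which passed the adjusted p but not the fold cutoff. MTF1, the regulator, was on the other side of 0, at 0.33, without passing either cutoff. Genes were called at an adjusted p of at most 0.01 and a log2 fold change of at least 1 in either direction (edgeR's quasi-likelihood test, p adjusted by Benjamini-Hochberg over all tested genes). T > C reads were scaled by TMM on all reads. They include reads with a single conversion, so they are a wider class than the one the study tested. A low-count filter kept 6 of the 8 genes, without MT1M and MT1X, and 3 of these 6 were called lower. Among all 7722 tested genes, 33.0% were called lower and 2.97% higher, so that lower T > C reads were common in the whole table and the count among these few genes is to be read against that share. At an adjusted p of 0.01 and any fold, 4 of the 6 were lower and none higher, against 38.0% and 3.83% of all tested genes. In 3 of the 6 (MT1E, MT1G and MT2A) every C646 library lay below every DMSO library, as in 55.8% of all tested genes, and in none above, against 6.46%. The median log2 fold change was −1.29 over the 6 genes and −0.83 over all tested genes.

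**Figure D1:**
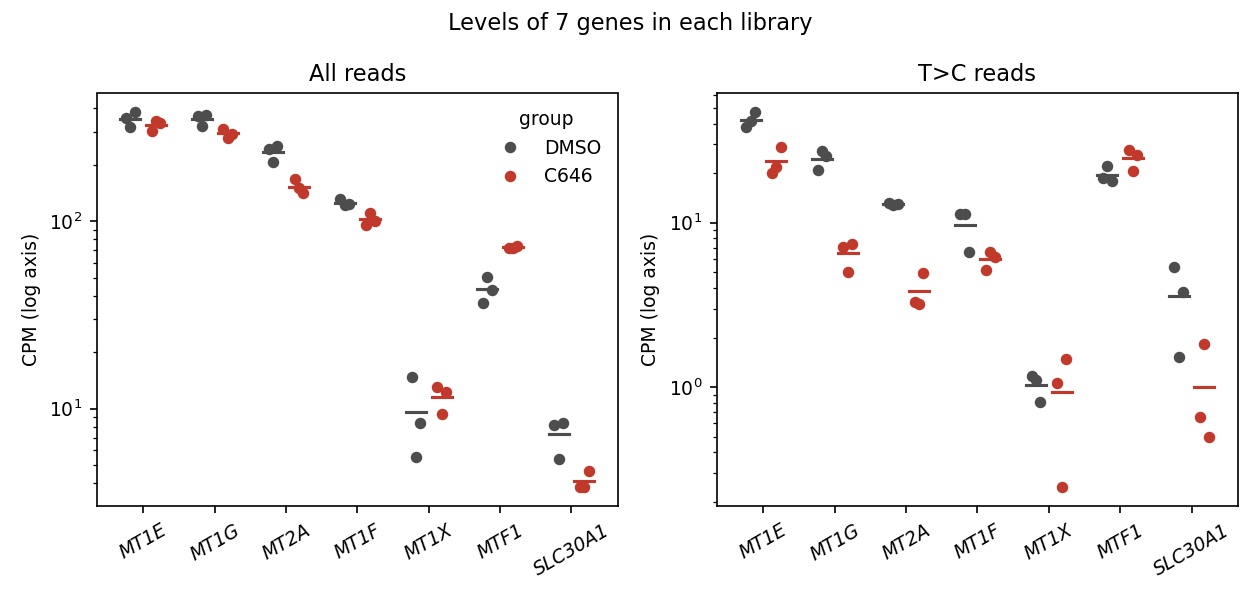
Levels of 7 of the 8 genes in each library, as CPM on a log axis, for all reads (left) and T > C reads (right). Points are libraries, bars are means of 3, and MT1M is left out because most of its T > C values were 0. In T > C reads, the C646 libraries of MT1E, MT1G and MT2A lie below all DMSO libraries, and in all reads those of MTF1 lie above them.

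MT1E and MT1G were the most read of the metallothioneins. Per kilobase of 3′ UTR, the level of all reads in the DMSO control was 2475 ± 231 CPM for MT1E (SD, n = 3 libraries), 2446 ± 178 CPM for MT1G and 1635 ± 162 CPM for MT2A. MT1E and MT1G could not be ordered, since their DMSO libraries spanned 2226 to 2683 and 2241 to 2569 CPM per kilobase, while those of MT2A, at 1450 to 1753, lay below both. MT1F followed at 540 ± 23.2 and MT1X at 65.0 ± 32.1 CPM per kilobase. SLC30A1 had 21.0 ± 4.76, MT1M 9.49 ± 0.811 and MTF1 7.78 ± 1.24 CPM per kilobase, and the DMSO libraries of MT1M and MTF1 overlapped (8.66 to 10.3 and 6.57 to 9.04). The libraries were made from 3′ ends, so that a long 3′ UTR such as the 5569 bases of MTF1 lowers its value per kilobase. The place of MTF1 in this order is therefore not one of transcript level. Without the division by length, MTF1 had 43.3 ± 6.88 CPM in DMSO. This was above MT1X at 9.55 ± 4.72, SLC30A1 at 7.33 ± 1.66 and MT1M at 1.37 ± 0.117 CPM.

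MT1G, which is 1 of the most read metallothioneins in these cells, fell most among those tested, though its 95% interval of −2.34 to −1.46 overlapped that of MT2A. The 3 DMSO libraries, in the order of their replicate numbers, had 197, 197 and 189 of its T > C reads and the 3 C646 libraries 54, 41 and 75, and values below are given in the same order. Scaled by all reads, these were 20.8, 27.3 and 25.4 CPM in DMSO and 7.14, 5.02 and 7.44 CPM in C646, so that the groups were far apart. The log2 fold change was −1.90 (standard error, SE, 0.22, adjusted p = 5.20e-08). Of the reads of MT1G, 5.70%, 8.46% and 6.88% were T > C reads in DMSO and 2.29%, 1.82% and 2.54% in C646. A fall was also present within the gene's own reads, which need no scaling between libraries. The log2 odds ratio was −1.70 (SE 0.20, adjusted p = 2.08e-07). The median over all tested genes was −1.004, and 19.6% of them had a lower value than MT1G.

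MT2A, which encodes metallothionein 2, also fell. DMSO libraries had 125, 92 and 96 of its T > C reads and C646 libraries 25, 26 and 50. This gave 13.2, 12.8 and 12.9 CPM against 3.31, 3.19 and 4.96 CPM, with no overlap between the groups. The log2 fold change was −1.74 (SE 0.27, adjusted p = 3.98e-06). The T > C share went from 5.41%, 6.15% and 5.16% to 1.98%, 2.12% and 3.51%, a log2 odds ratio of −1.17 (SE 0.24, adjusted p = 0.000262). This was near the median of −1.004 over all tested genes, of which 41.9% had a lower value. When T > C reads were scaled by TMM on their own counts in place of all reads, MT2A was at −0.92 (adjusted p = 0.0085), short of the fold cutoff, and MT1G at −1.07.

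MT1E gave 38.4, 41.6 and 46.9 CPM of T > C reads in DMSO and 19.97, 21.8 and 29.0 CPM in C646, so that the groups did not overlap. The log2 fold change of −0.84 (SE 0.18, adjusted p = 0.000304) was that of the median tested gene. Its T > C share was 10.7%, 13.2% and 12.3% in DMSO and 6.63%, 6.38% and 8.71% in C646, a log2 odds ratio of −0.81 (adjusted p = 0.000266). MT1F had 11.3, 11.2 and 6.60 CPM in DMSO and 5.16, 6.62 and 6.15 CPM in C646, and DMSO replicate 3 lay among the C646 values. Its log2 fold change of −0.70 (SE 0.27) had an adjusted p of 0.0313 and was not called. TMM on the T > C reads moved the median of all tested genes from −0.83 to 0.01, and with it MT1E to −0.01 and MT1F to 0.13.

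MT1X and MT1M had too few T > C reads for the test. MT1X had 11, 8 and 6 in DMSO and 8, 2 and 15 in C646, out of 140, 40 and 62 reads and of 99, 76 and 123 reads, so that its T > C share overlapped between the groups. MT1M had 2 T > C reads in DMSO replicate 2 and 0 in the other 5 libraries, with 0 to 13 reads in all per library. In the 4 libraries with reads but no T > C read, a count of 0 allows a share of up to 23.1% to 37.5%. No fold is given for MT1M, and a difference was not detectable at this depth.

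SLC30A1, the exporter, was called lower on few reads. DMSO libraries had 51, 11 and 28 of its T > C reads and C646 libraries 5, 15 and 5, which is 5.38, 1.52 and 3.77 CPM against 0.661, 1.84 and 0.496 CPM. The groups overlapped, because C646 replicate 2 lay above DMSO replicate 2. The log2 fold change was −1.85 (SE 0.55, adjusted p = 0.00559). Without DMSO replicate 1 it was −1.41 (adjusted p = 0.09), and the call was also lost without DMSO replicate 3, C646 replicate 1 or C646 replicate 3, at adjusted p-values of 0.0226, 0.0174 and 0.0225. It was −2.62 (adjusted p = 0.00193) without C646 replicate 2 and −2.21 without DMSO replicate 2. The T > C share of SLC30A1 was 65.4%, 28.2% and 45.2% in DMSO and 17.2%, 48.4% and 10.6% in C646. The 95% Wilson interval of a single library was as wide as 32.0% to 65.2% in C646 replicate 2, and the log2 odds ratio of −1.54 (SE 0.74) had an adjusted p of 0.0709. Single libraries moved it to −2.52 (adjusted p = 0.0123) without C646 replicate 2, −0.935 without DMSO replicate 1 and −0.90 without C646 replicate 3.

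MTF1, the zinc sensor, had a high T > C share, as did SLC30A1. The share of SLC30A1 rests on 39 to 78 reads per DMSO library and ranged from 28.2% to 65.4%. In the DMSO control, 51.0%, 44.1% and 41.6% of the reads of MTF1 were T > C reads, against a median of 13.3% over all tested genes (interquartile range 7.94% to 23.3%). The mean share stood at percentile 93.0 of the tested genes and that of SLC30A1 at 93.4. The metallothioneins lay lower, with MT2A at percentile 12.5, MT1G at 20.2, MT1F at 23.98 and MT1E at 45.3. Reads of the 8 genes covered 27.7 to 41.0 T positions each in the DMSO control, where the median gene had 31.3, with 28.2 in MTF1, 38.5 in MT1G and 41.0, the most, in SLC30A1.

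T > C reads of MTF1 were 18.7, 22.2 and 17.9 CPM in DMSO and 27.5, 20.5 and 25.7 CPM in C646. C646 replicate 2 lay within the DMSO values. The log2 fold change was 0.33, with a 95% interval from −0.05 to 0.70 (SE 0.19, adjusted p = 0.145). Of all tested genes, 89.7% had a lower log2 fold change. With TMM on the T > C reads, which shifted all genes upward, MTF1 was called higher, at 1.16 (adjusted p = 1.69e-05). Within its own reads, T > C reads went from the shares above to 38.2%, 28.5% and 34.7% in C646, all below the DMSO values, with a log2 odds ratio of −0.72 (SE 0.27, adjusted p = 0.0256) that was not called.

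**Figure D2:**
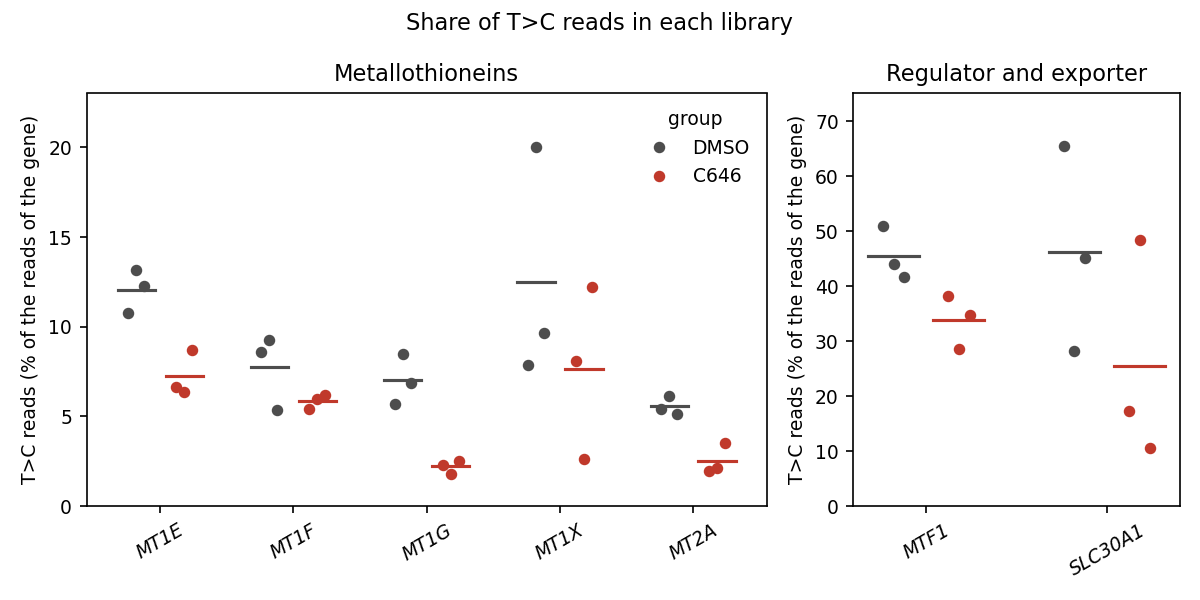
Share of T > C reads among the reads of each gene, in percent, for 5 metallothioneins (left) and for MTF1 and SLC30A1 (right, other scale). Points are libraries and bars are means of 3. MT1E, MT1G, MT2A and MTF1 have all C646 libraries below all DMSO libraries, while MT1F, MT1X and SLC30A1 overlap.

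For the T > C share, 2 of the 6 tested genes were called lower, MT1G and MT2A, and none higher. At an unadjusted p under 0.05, 5 of the 6 were lower and none higher, against 64.8% and 1.88% of all tested genes. In the whole table, 38.3% were called lower and 0.790% higher. At an adjusted p of 0.01 and any fold, 3 of the 6 (MT1E, MT1G and MT2A) were lower, against 44.8% lower and 1.14% higher in the whole table. The share was lower in every C646 library than in any DMSO library for 4 of the 6 (MT1E, MT1G, MT2A and MTF1), against 64.5% of all tested genes, with 2.18% the other way. The median log2 odds ratio was −0.99 over the 6 genes and −1.004 over all tested genes. Summed over the 6 metallothioneins, 7.62%, 9.68% and 8.17% of the reads were T > C reads in DMSO and 4.12%, 4.15% and 5.57% in C646. The sum made up 0.104% ± 0.00619 (SD, n = 3) of all T > C reads in the DMSO control and 0.0625% ± 0.00825 in C646-treated cells. Conversions per covered T position of these genes were 0.532% ± 0.0712 in DMSO and 0.247% ± 0.0386 in C646. Over whole libraries this rate was 0.632% to 0.662% in DMSO and 0.416% to 0.432% in C646. For the metallothioneins, the 3 C646 libraries lay below the 3 DMSO libraries in both the part of all T > C reads and the conversion rate. The conversion rate of whole libraries did so too.

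The number of conversions per T > C read did not overlap between the groups in 1 of the 6 genes, MT1G, with C646 lower, against 24.9% of all genes with a value in every library, and in none with C646 higher, against 1.49%. In MT1G it was 2.53, 2.50 and 2.47 in the DMSO libraries and 1.91, 1.56 and 1.68 in the C646 libraries. It was 2.33, 2.34 and 2.15 against 2.32, 1.58 and 2.00 in MT2A and 2.32, 1.84 and 2.41 against 2.23, 2.02 and 1.61 in MT1F, and both overlapped. MT1E and MTF1 overlapped as well, with 1.93 ± 0.0959 (SD, n = 3) in DMSO and 1.85 ± 0.0561 in C646 for MT1E and with 2.07 ± 0.0372 and 1.97 ± 0.0753 for MTF1. Over whole libraries it was 2.00 to 2.11 in DMSO and 1.87 to 1.91 in C646. SLC30A1 had the most conversions per T > C read of the 8 genes, 3.57 ± 0.795 in DMSO and 4.07 ± 0.306 in C646, from 5 to 51 T > C reads per library. In MT1X, C646 replicate 1 had 8 T > C reads and 6 conversions, and the reason was not tested.

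In all reads, which count old and new RNA together, none of the 8 genes was called after the 2 h of treatment, by edgeR or by DESeq2. MT2A was lower and MTF1 higher beyond the adjusted p of 0.01, both by less than a log2 fold change of 1, and both lost this pass when certain single libraries were left out. The adjusted p of MT2A was 0.018, 0.0192, 0.0285 and 0.0105 without DMSO replicate 1, DMSO replicate 3, C646 replicate 2 and C646 replicate 3, and 0.0269 when scaled by all filtered reads. That of MTF1 was 0.0163, 0.0102 and 0.0133 without DMSO replicate 1, DMSO replicate 3 and C646 replicate 2. Of the 10851 genes tested in all reads, 1.88% were called lower and 5.89% higher, and 7 of the 8 genes, all but MT1M, were tested. At an unadjusted p under 0.05, 3 of the 7 were lower and 1 higher, against 20.5% and 22.1% of all tested genes. At an adjusted p of 0.01 and any fold, 1 was lower and 1 higher, against 6.28% and 9.81% of all tested genes.

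MT2A had 243, 207 and 251 CPM in DMSO and 167, 150 and 141 CPM in C646. The groups did not overlap, and the log2 fold change was −0.61 (SE 0.13, adjusted p = 0.00371). MTF1 had 36.6, 50.3 and 43.1 CPM in DMSO and 72.1, 71.8 and 74.0 CPM in C646. The 3 C646 libraries lay close together and above every DMSO library, with a log2 fold change of 0.75 (SE 0.15, adjusted p = 0.00234). SLC30A1 was at 8.22, 5.41 and 8.35 CPM in DMSO and 3.84, 3.799 and 4.66 CPM in C646, from 29 to 78 reads per library. Its groups did not overlap, while the log2 fold change of −0.83 had an adjusted p of 0.0468 and was not called.

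None of the other metallothioneins passed the adjusted p in all reads. MT1G had 364, 323 and 370 CPM in DMSO and 312, 276 and 292 CPM in C646, a log2 fold change of −0.26 (adjusted p = 0.129). MT1F stood at −0.29 (adjusted p = 0.0953), with DMSO libraries of 131, 121 and 123 CPM and C646 libraries of 95.5, 111 and 99.7 CPM. MT1E was at −0.11 (adjusted p = 0.542), with 357, 316 and 381 CPM in DMSO and 301, 342 and 333 CPM in C646. MT1X was at 0.25 (adjusted p = 0.555), with 14.8, 5.55 and 8.35 CPM in DMSO and 13.1, 9.31 and 12.2 CPM in C646. The groups of MT1E and of MT1X overlapped. MT1M had 13, 9 and 11 reads in DMSO and 8, 0 and 11 in C646. Groups of 4 of the 7 tested genes did not overlap with C646 lower (MT1F, MT1G, MT2A and SLC30A1) and those of MTF1 did not overlap with C646 higher, where 23.1% and 24.5% of all tested genes gave such a pattern. Scaling by all filtered reads, which also count reads off the 3′ UTRs, moved the median of all tested genes to 0.20 and the value of MT1E to 0.10, so that its sign turned. For MT1X it turned to −0.02 without DMSO replicate 2.

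**Figure D3:**
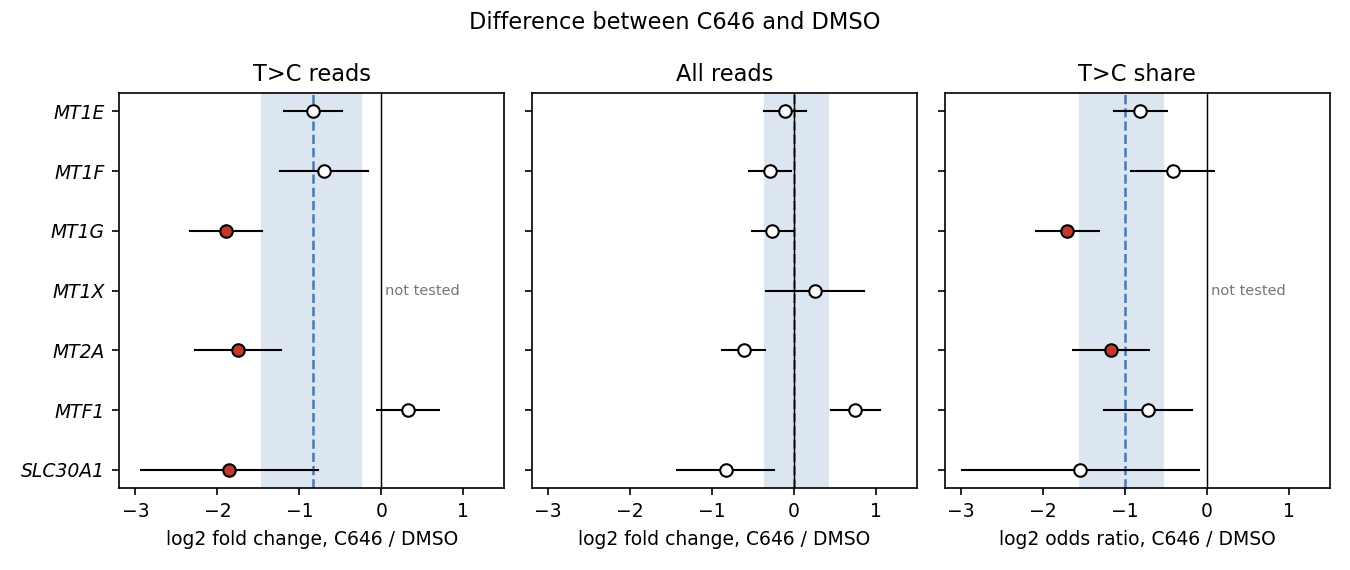
Difference between C646 and DMSO for 7 genes in T > C reads, all reads and the T > C share, on the log2 scale, over 3 libraries per group. Bars are approximate 95% intervals, which can be narrower than the test, as for MT1G in all reads. Filled points were called, dashed lines and bands give the median and interquartile range of all tested genes. MT1G, MT2A and SLC30A1 lie to the left of the band in T > C reads, and MT2A and SLC30A1 also do in all reads. MTF1 lies to the right of it in both T > C reads and all reads.

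**Figure D4:**
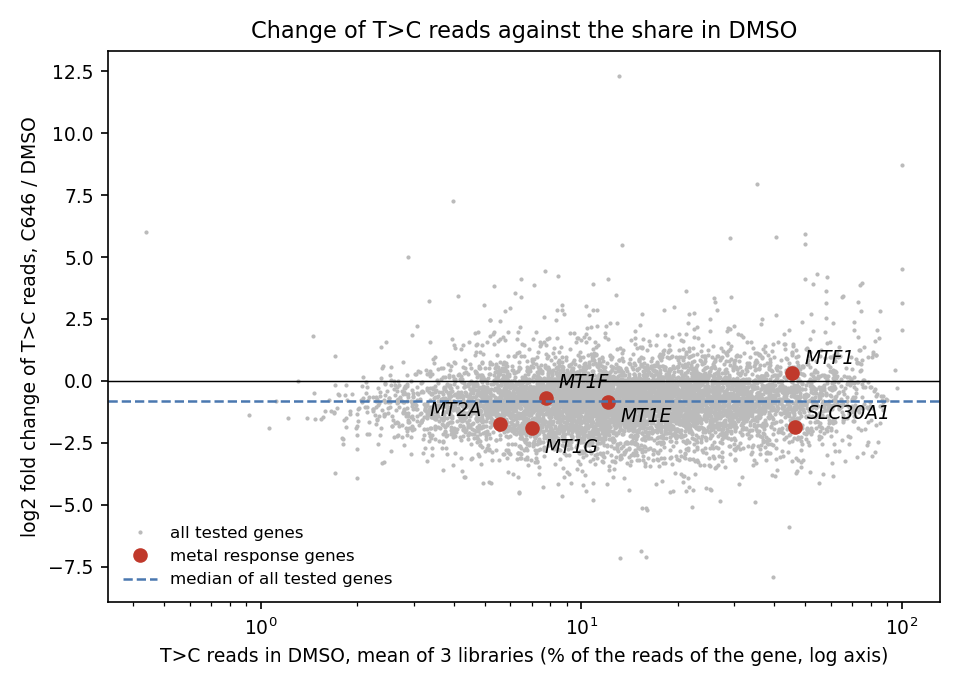
Log2 fold change of T > C reads against the mean T > C share of each gene in DMSO (percent, log axis) for 7715 of the 7722 tested genes, with the 6 tested metal response genes marked. MTF1 and SLC30A1 sit at similar shares of 45.5% and 46.3% and at changes of 0.33 and −1.85.

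Reads from such similar genes could be split between copies. The 3′ UTRs of the 6 metallothioneins were between 47.2% and 89.7% identical in the 15 pairs, with a median of 68.2%. MT1E and MT1M were the most alike and shared a run of 30 bases, and in the other pairs the longest shared run was 10 to 19 bases. Multimapped reads made up 0% to 1.67% of the reads of the 8 genes over all libraries, highest in MT1X, where the median gene had 0.0763% (upper quartile 0.221%) and whole libraries 4.22% to 4.94%. MT1F had 0.494%, MT1G 0.273% and MT1E 0.195%, all above the median gene, and MT2A had 0.0731%. MT1M had 0%, and it had 52 reads in all libraries against 16920 of MT1E.

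The other genes of metal handling were read from a list of 52, of which 29 passed the low-count filter in T > C reads. In C646-treated cells 8 of these were called lower and 2 higher, and the median log2 fold change of −0.83 was that of all tested genes. Of all tested genes, 33.0% were called lower and 2.97% higher. The lower genes were 2 with TMM on the T > C reads, 3 without DMSO replicate 1 and 4 without DMSO replicate 3, while 2 were higher in each case. In all reads, 35 were tested and none was called by edgeR or by DESeq2, with 7 lower and 9 higher at an unadjusted p under 0.05, where 20.5% and 22.1% of all tested genes were. In the T > C share, 14 of 29 were called lower and 2 higher, against 38.3% and 0.790% of all tested genes.

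Of 7 further metallothionein genes, none had enough T > C reads to be tested, and 4 had at most 3 reads in any library. MT1H was the most read, with 31 to 76 reads per library. DMSO libraries had 4, 1 and 6 of its T > C reads and each C646 library had 0. In all reads the log2 fold change of MT1H was −0.33 (adjusted p = 0.452).

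Of 9 zinc exporters other than SLC30A1, 4 were tested in T > C reads and none was called by edgeR or by DESeq2, against 33.0% of all tested genes called lower by edgeR. At an unadjusted p under 0.05, 3 of the 4 were lower, as were 54.8% of all tested genes. SLC30A9, the most read, was at −0.31 (adjusted p = 0.466). In the T > C share, 3 of the 4 were called lower, SLC30A5, SLC30A6 and SLC30A7, at log2 odds ratios of −1.13, −1.23 and −1.06, against 38.3% of all tested genes and their median of −1.004. Of 14 zinc importers, 8 were tested in T > C reads and 2 were called lower (33.0% of all tested genes were), SLC39A3 at −1.41 and SLC39A14, which also carries iron, at −1.27. SLC39A9, the most read importer, was at −0.32 (adjusted p = 0.323). In the T > C share 3 of 8, SLC39A3, SLC39A14 and SLC39A8, were called lower, the last at −2.06, against the same 38.3%. SLC39A7 was listed at 0 reads in every library.

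Of the copper handling genes, 3 of 7 tested in T > C reads were called lower, where 33.0% of all tested genes were, with a median of −1.58. These were SCO2 at −2.47 and SCO1 at −1.84, which deliver copper to cytochrome c oxidase, and COMMD1, which takes part in copper export, at −1.83. COX17, the most read gene of the list, was at −0.41 (adjusted p = 0.18). In the T > C share SCO1, SCO2, COMMD1 and ATOX1, a copper chaperone at −1.31, were called lower, against 38.3% of all tested genes.

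Iron handling genes were called in both directions, with 3 of 10 lower and 2 higher, against 33.0% and 2.97% of all tested genes. The called-higher genes were the ferritin genes FTH1 and FTL, whose products store iron, at log2 fold changes of 1.98 and 1.85 in T > C reads. FTL, the most read gene of the list, had 204 ± 9.81 CPM of T > C reads in DMSO and 736 ± 110 CPM in C646, while its all reads were at −0.15 (adjusted p = 0.462). Multimapped reads made up 55.9% of the reads of FTH1 and 0.0454% of those of FTL, so FTH1 is less certain. The transferrin receptor gene TFRC, which takes up iron, was called lower at −1.97, with 32.3 ± 2.69 CPM in DMSO and 8.21 ± 1.68 CPM in C646. The iron importer SLC11A2 was lower at −1.67 and the mitochondrial iron carrier SLC25A28 at −1.09. In the T > C share, FTH1 and FTL were called higher, and TFRC, SLC11A2, PCBP2 (−1.12) and SLC25A37 (−1.12) lower, against 0.790% and 38.3% of all tested genes.

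The genes beside the metallothionein cluster did not share one direction. Of 8 neighbours, 4 were tested in T > C reads and 1 was called, OGFOD1 at −2.50 (SE 0.36, adjusted p = 1.51e-06). Of all tested genes, 33.0% were called lower. OGFOD1 was also the 1 of the 4 called lower in the T > C share, against 38.3% of all tested genes. In RefSeq, OGFOD1 overlaps BBS2. NUP93 and NUDT21 were each at 0.12 and HERPUD1 at −0.32, and none of the 3 was called. NUP93 was the most read of the 8. Within the cluster, the called genes MT2A and MT1G lay 58.4 kb apart by the middle of the genes, with MT1E and MT1F, which were not called, between them.

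**Figure D5:**
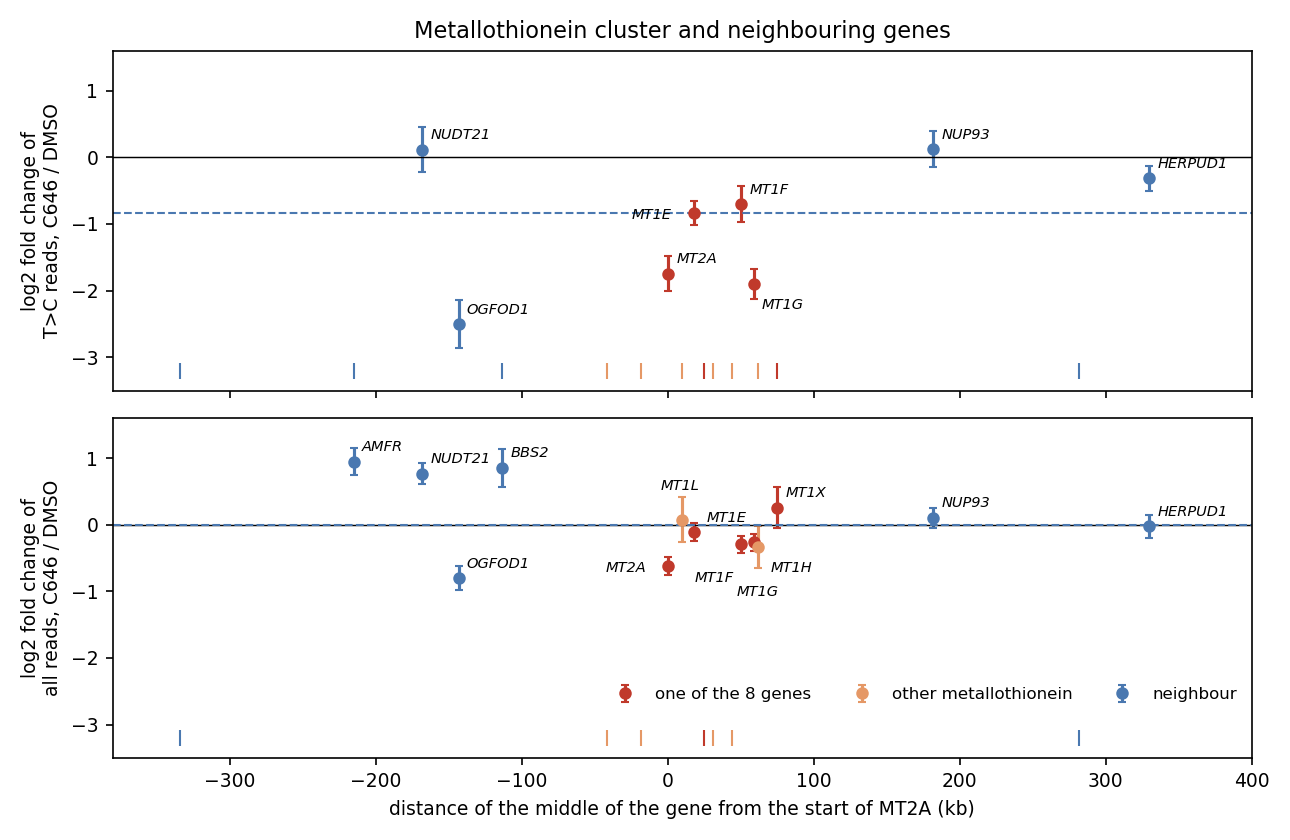
Log2 fold change of T > C reads (top) and all reads (bottom) against the distance of the middle of each gene from the start of MT2A in kb, for the metallothionein cluster and its neighbours. Error bars are standard errors, dashed lines the median of all tested genes, and ticks at the foot mark genes that were not tested. In T > C reads, MT2A, MT1G and the neighbour OGFOD1 lie well below the median line. NUDT21 and NUP93, on either side of the cluster, lie above 0 by less than their standard errors.

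The genes most like MT1E, which had the most T > C reads of the 8, were sought by the correlation of log2 T > C CPM across the 6 libraries among 2838 genes whose mean T > C count per library was 50 or more. They were DMAC1 (Pearson r = 0.996), SKIDA1 (0.994), HNRNPM (0.992), ETS2 (0.991) and PDS5A (0.99), and 196 genes had an r above 0.95. For MTF1 they were CEBPB (0.93), HENMT1 (0.92), STOX2 (0.91), TAB2 (0.899) and RPL36A-HNRNPH2 (0.892), and none was above 0.95. The 6 points of each correlation fall into the 2 groups and share their libraries and depth, so these values are a description only.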

How the data were processed

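MOLM-13 libraries of 3 DMSO and 3 C646 replicates were analysed, grouped by their labels. Reads were aligned to GRCh38 by the authors with SLAM-Dunk 0.4.1 and counted on 58136 annotated 3′ UTRs, and the submitters' processing notes also name CASAVA 1.9. The authors deposited raw counts of all reads, T > C reads, conversions and multimapped reads. They also deposited a signal, the coverage on T positions, and a CPM per 3′ UTR scaled by filtered reads, from which the filtered totals were computed. The deposited number of T bases, a plain sequence property, is 0 throughout C646 replicate 3 and was taken from the other tables. Of 6080 deposited entries with 1 T > C read, 54.1% list 1 conversion, 34.3% list 2 or more and 11.6% list 0. The authors tested reads with 2 or more conversions, so the T > C reads used here are a wider class.

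Counts were summed per Entrez identifier, of which 25310 of 25420 matched a symbol. T > C reads and all reads were fitted over all genes with edgeR 4.0.16 in R 4.3.3 (filterByExpr, glmQLFit, glmQLFTest), scaled by TMM on all reads. The T > C share was fitted as T > C against other reads with a library term, giving a log2 odds ratio. CPM values printed here use the same scaled totals. On data simulated for the T > C test (7664 genes), 100% of 200 genes changed by 4-fold were recovered, with 1 false call. The simulated spread between libraries was a fixed setting, only well-covered genes were changed, and no shift of the whole table was simulated. The recovery therefore does not measure the power for genes with few T > C reads, such as SLC30A1, MT1X and MT1M. The alternatives were other scalings, DESeq2 1.42.0, other filters, glmTreat, a replicate block and leaving out each library. Pairs of libraries of a group differed by more than sampling noise (chi-square over degrees of freedom, 7.87 to 27.7). The labels do not say whether the replicates were separate cultures, so p-values measure the spread between these samples, which may be technical. Intervals and limits from counts cover counting error only.

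All 8 genes are named whatever their values, and of the other lists each gene called in T > C reads or in the T > C share and the most read. The genes and lists were chosen with earlier results of these data known. Protein sequences were not used here.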

Additional observations from a re-analysis of the deposited data

How the results depend on the processing

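TMM on the T > C reads set the median of all tested genes to 0.01, called 1 of the 8 genes lower (MT1G) and 1 higher (MTF1, 1.16), against 3 and 0, and turned MT1F from −0.70 to 0.13. Called T > C reads of the other metal genes fell from 8 lower to 2 under that scaling, to 5 when scaled by all filtered reads, to 5 with the DESeq2 Wald test, to 1 among genes with at least 50 reads per library and to 2 with glmTreat. Leaving out 1 library gave 3 to 8 lower genes, with 3 without DMSO replicate 1 and 4 without DMSO replicate 3. Among the 8 genes, leaving out 1 library gave 2 or 3 lower. In all reads, MT1E turned from −0.11 to 0.10 when scaled by all filtered reads, and MT1X ranged from −0.016 without DMSO replicate 2 to 0.73 without DMSO replicate 1, against 0.25. The SLC30A1 call was also lost with TMM on the T > C reads (−1.02), by all filtered reads (adjusted p = 0.0158), with DESeq2 (0.0157) and with glmTreat (0.0833), and MT1E was called without C646 replicate 3 (−1.01). The cause of these changes was not tested. Over single genes, 270 alternative values kept their direction and their call, which needs both cutoffs, 9 lost and 2 gained a call, and 3 changed sign. Some of the 270 crossed the adjusted p cutoff alone, as MT1E did with TMM on the T > C reads (0.000304 to 0.9775) and MT2A and MTF1 did in all reads.

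Same-numbered libraries deviated together only weakly, with correlations of 0.0299 to 0.0655 in T > C reads and −0.00136 to 0.231 in all reads, so the numbers were not taken to pair the samples. In T > C reads 6 of 6 libraries correlated best with their own number and in all reads 3 of 6. With a replicate block, 3 of the 8 genes were lower in T > C reads, 0 in all reads and 2 in the T > C share, and 7 of the other metal genes were lower. The depth limits MT1M, MT1X and SLC30A1, which had at most 13, 140 and 78 reads in a library.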
